A study of Mus musculus with 6 samples.

Results

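The Toll-like receptor set held 10 genes of the deposited table of 33924 gene symbols: Tlr1, Tlr2, Tlr4, Tlr6, Tlr7, Tlr8, Tlr9, Tlr13, Cd14 and Myd88. They were chosen by symbol, as receptors that sense microbial lipids or nucleic acids, the co-receptor gene Cd14 and the shared adaptor gene Myd88. All 10 had counts and all 10 passed the filter on low counts, as did 13406 genes in all. The members were read in 6 RNA-seq libraries of mouse acute myeloid leukaemia cells, 3 in each of 2 groups. In both groups the cells carried the oncogene MLL-AF9 (a fusion of KMT2A and MLLT3) from a retrovirus. The groups differ in the cell that received it. LSK cells are marrow cells that include the stem cells, and granulocyte-macrophage progenitors (GMP) are committed to the myeloid lineage. Transformed GFP+ cells had been transplanted with wild-type support marrow into syngeneic C57BL/6 mice irradiated with 950 cGy, and leukaemia cells from the marrow of moribund mice were kept in culture with SCF at 20 ng/mL, IL-3 at 10 ng/mL and IL-6 at 10 ng/mL. The libraries are named by group and by the number in their titles (LSK 44, 45 and 46, called the LSK trio, and GMP 5, 11 and 19, the GMP trio), and values of a trio are always given in that order. The labels give no age of the animals, and no sort after culture, and they do not say whether each library had its own transduction or its own mouse. P-values here thus measure the spread between these particular libraries, and some of it may be technical. The question in the title of the series is how the cell of origin bears on apoptosis and on LSD1 inhibition, and no library is labelled as given an inhibitor or a Toll-like receptor ligand.

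Toll-like receptors are membrane proteins whose outer leucine-rich repeats bind microbial molecules and whose inner TIR domain recruits adaptors. TLR1, TLR2, TLR4 and TLR6 act mainly at the cell surface, while TLR7, TLR8, TLR9 and TLR13 act in endosomes. MYD88 links nearly all of them to IRAK kinases, TRAF6 and NF-kB. In the blood system they are best known in monocytes, macrophages, dendritic cells and neutrophils, and early progenitors carry some of them too.

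Tlr1 and Tlr6 are neighbouring, closely related genes on chromosome 5, and their sequences bear on how far their counts can be told apart. In GENCODE M21 transcripts, 454 windows of 50 bases were found in both genes, out of 3332 windows of Tlr1 and 3702 of Tlr6. Counting windows shared with any other gene, the numbers were 513 for Tlr1 (with Gm43941, 9530046B11Rik and Nfkb1 among the others) and 456 for Tlr6. The longest identical run was 229 bases, within the coding part of both. It is shown with 20 bases on each side, 5′ to 3′, where capitals mark the 2 positions that differ (Tlr1 transcript positions 1919 to 2187, Tlr6 transcript positions 1632 to 1900).
Tlr1: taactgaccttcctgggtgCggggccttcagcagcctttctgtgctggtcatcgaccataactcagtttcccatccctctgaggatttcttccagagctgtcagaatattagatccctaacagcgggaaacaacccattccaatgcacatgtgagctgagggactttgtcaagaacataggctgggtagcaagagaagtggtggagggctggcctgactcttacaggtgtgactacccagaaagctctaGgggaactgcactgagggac
Tlr6: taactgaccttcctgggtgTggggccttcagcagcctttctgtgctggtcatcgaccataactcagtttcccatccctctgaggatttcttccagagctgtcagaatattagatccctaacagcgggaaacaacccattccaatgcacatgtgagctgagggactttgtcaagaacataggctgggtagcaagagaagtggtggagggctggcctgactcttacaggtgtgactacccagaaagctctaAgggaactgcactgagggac
A read inside such a stretch does not tell one gene from the other, and how the counting treated such reads is not given in the sources used here. No 50-base window of Tlr2, Tlr7, Tlr8, Tlr9, Tlr13 or Cd14 was found in another gene, while 12 of 5551 windows of Tlr4 were. Of 2616 windows of Myd88, 194 were shared with Acaa1a, whose exons overlap it on the other strand.

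Levels are in CPM, the counts of a gene scaled to a common library total with TMM factors. Total counts per library ran from 16640929 in LSK 44 to 33885428 in GMP 11, which puts 3 counts, scaled to those totals, at 0.1803 CPM in LSK 44 and 0.0885 CPM in GMP 11. Kit, the SCF receptor gene of immature cells, was at 193 ± 12.0 CPM in the LSK trio and 115 ± 24.7 CPM in the GMP trio, and Hoxa9, a gene that MLL fusions activate, at 191 ± 10.46 and 328 ± 2.99 CPM. Of the same list of leukaemia markers, Meis1 hardly differed, at 122 ± 8.83 and 120 ± 11.9 CPM. Ptprc was at 242 ± 29.2 and 387 ± 34.9 CPM, Cebpa at 100 ± 23.4 and 178 ± 6.67 CPM, and Itgam at 193 ± 102 and 301 ± 107 CPM. The neutrophil granule gene Mpo was at 13.8 CPM in GMP 5 and at 316 CPM or more in each of the other libraries, and the mast cell protease gene Cpa3 was at 88.5 CPM in GMP 5 and at most 2.87 CPM elsewhere, so GMP 5 stood apart from its group beyond the Toll-like receptor genes. Of 7 T cell and NK cell markers, 6 had at most 10 counts in every library, with Cd3e and Ncr1 at 0. The 1 tested, the NK cell receptor gene Klrb1c, was low, with 51 counts in all in the LSK trio against 2 in the GMP trio (log2 fold change 4.83 ± 0.74, adjusted p = 0.00518). It passed the filter on low counts only through the LSK trio, so this test was not independent of the filter.

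Tlr1 and Tlr6 passed the test for a difference between the groups, and both were lower in the LSK-derived leukaemias. Tlr1, the partner of TLR2 in sensing triacylated lipopeptides, was at 3.21, 6.79 and 1.75 CPM in the LSK trio and at 18.9, 20.1 and 21.5 CPM in the GMP trio. The GMP-derived libraries lay close together and every one of them was above every LSK-derived library. The group means were 3.92 ± 2.59 and 20.2 ± 1.33 CPM (SD, n = 3 each), a 5.12-fold difference (log2 fold change, LSK-derived minus GMP-derived, -2.36 ± 0.46 SE, edgeR adjusted p = 0.0141). Without LSK 44 the call of Tlr1 was lost (adjusted p = 0.0625, against 1.74e-07 at the lowest, over 11 alternatives), and without LSK 45, the highest of its group, the log2 fold change was -3.04. Without GMP 5 it was -2.41 (adjusted p = 0.0250).

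Tlr6, the other TLR2 partner, which serves diacylated lipopeptides, was at 2.48, 4.32 and 1.79 CPM in the LSK trio and at 6.19, 8.46 and 10.7 CPM in the GMP trio. Again the groups did not overlap. The means were 2.86 ± 1.31 and 8.44 ± 2.24 CPM (log2 fold change -1.55 ± 0.36, adjusted p = 0.0221). The call of Tlr6 was lost without LSK 44 (adjusted p = 0.0858), LSK 46 (0.0638), GMP 11 (0.0559) or GMP 19 (0.0655), in a range from 0.000445, and held without GMP 5 (log2 fold change -1.74, 0.0228). With the counts of Tlr1 and Tlr6 added into 1 feature, which removes any division of reads between them, the sum was 6.78 ± 3.90 CPM in the LSK trio and 28.6 ± 3.57 CPM in the GMP trio (log2 fold change -2.07 ± 0.40, adjusted p = 0.0138). The sum does not restore any shared reads that the counting may have left out of both genes.

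Tlr2, which both need as a partner, was not called. It was at 15.1, 18.8 and 13.04 CPM in the LSK trio and at 9.88, 16.8 and 19.1 CPM in the GMP trio. The ranges overlapped almost wholly, with a log2 fold change of 0.03 ± 0.26 (adjusted p = 0.942). Per kb of exon within a library, Tlr1 stood at 0.213 ± 0.104 of the Tlr2 level in the LSK trio against 1.27 ± 0.392 in the GMP-derived libraries, and Tlr6 at 0.143 ± 0.0383 and 0.455 ± 0.0495. The ratio of Tlr1 to Tlr6 was 1.43 ± 0.332 and 2.77 ± 0.585. None of these 3 ratios overlapped between the groups. Among single genes, 45.4% of all tested genes did not overlap in either direction. An exact two-sided permutation test gave p = 0.1 for each ratio (0.1 after Benjamini-Hochberg adjustment over the 3), the smallest p that 20 splits of 3 against 3 libraries allow. This test thus could not pass 0.05. The ratios reuse the counts of genes tested above and are given as a description.

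**Figure D1:**
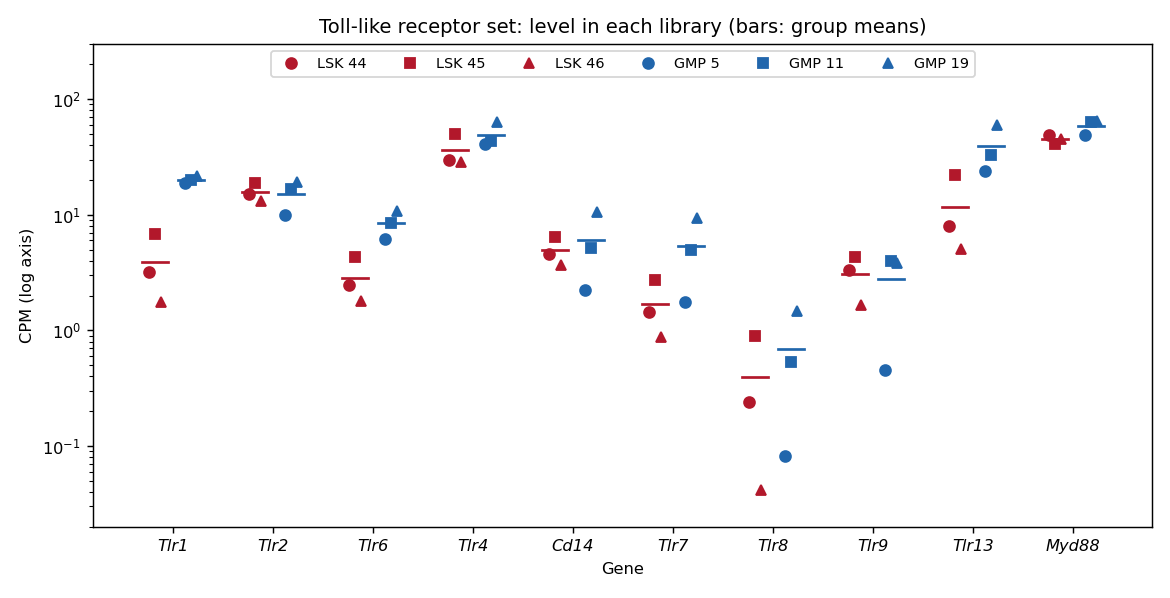
CPM of the 10 genes in each library on a log axis, with red symbols for LSK-derived and blue for GMP-derived libraries and bars at the group means. Tlr1, Tlr6 and Tlr13 are the genes whose groups do not overlap, and the GMP-derived points of Tlr1 sit between 18.9 and 21.5 CPM.

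Tlr4, the lipopolysaccharide receptor gene, was at 29.6, 49.7 and 28.5 CPM in the LSK trio and at 41.1, 43.4 and 63.7 CPM in the GMP trio. LSK 45 was higher than GMP 5 and GMP 11, so the groups overlapped (log2 fold change -0.46 ± 0.27, adjusted p = 0.262). Without LSK 45 Tlr4 was called lower in the LSK-derived libraries (log2 fold change -0.76, adjusted p = 0.0481, the lowest in a range up to 0.596). Cd14, which encodes a surface protein that hands lipopolysaccharide to TLR4, was at 4.597, 6.44 and 3.71 CPM in the LSK trio and at 2.25, 5.19 and 10.6 CPM in the GMP trio. The GMP-derived libraries held both the lowest and the highest Cd14 level of the 6 (log2 fold change -0.30 ± 0.54, adjusted p = 0.722), and the sign turned without GMP 19 (0.40). Ly96 encodes MD-2, the TLR4 subunit that binds lipopolysaccharide; it was at 2.28 ± 0.678 and 3.08 ± 0.426 CPM, which was no called difference (adjusted p = 0.289).

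Of the endosomal receptors, none passed the test. Tlr13, a sensor of bacterial ribosomal RNA, was at 7.98, 22.2 and 5.04 CPM in the LSK trio and at 23.9, 32.9 and 60.3 CPM in the GMP trio. Its groups did not overlap, though LSK 45 and GMP 5 came close, and the mean difference was 3.31-fold (11.7 ± 9.16 against 39.0 ± 18.99 CPM, log2 fold change -1.73 ± 0.61, adjusted p = 0.0837). Without LSK 45 Tlr13 was called (log2 fold change -2.59, adjusted p = 0.0236, the lowest in a range up to 0.246). Tlr7, a sensor of single-stranded RNA, was at 1.45, 2.75 and 0.875 CPM in the LSK trio and at 1.76, 4.93 and 9.32 CPM in the GMP trio. GMP 5 lay within the LSK-derived range, and the log2 fold change was -1.65 ± 0.68 (adjusted p = 0.123). Tlr7 was called without GMP 5 (log2 fold change -2.07, adjusted p = 0.0368) and by DESeq2 (-1.66, 0.0362). Its log2 fold change was -0.98 without GMP 19 (adjusted p = 0.327, the highest of its alternatives) and -2.22 without LSK 45 (0.0955).

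Tlr9, which binds unmethylated CpG DNA, was at 3.33, 4.32 and 1.67 CPM in the LSK trio and at 0.451, 3.98 and 3.84 CPM in the GMP trio. GMP 5, with 11 counts, stood below the other 5 libraries (log2 fold change 0.16 ± 0.74, adjusted p = 0.898; the sign turned without GMP 5, at -0.34, and without LSK 45, at -0.17). Tlr8 was near the limit of detection, with 4, 23 and 1 counts in the LSK trio and 2, 18 and 50 counts in the GMP trio. LSK 46 and GMP 5 were below 3 counts, a level that a count of 0 would still allow, so the log2 fold change of Tlr8 (-0.79 ± 1.10, adjusted p = 0.633) has little precision. Tlr7, Tlr8 and Tlr13 lie on the X chromosome. All 6 libraries had Xist, the RNA of the inactive X, at 1396 to 1875 CPM, and at most 1 count of Ddx3y or Eif2s3y and none of Kdm5d or Uty, all Y-linked genes.

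Myd88, the adaptor gene, had the highest mean of the set, at 49.4, 41.1 and 45.3 CPM in the LSK trio and at 49.4, 63.3 and 64.6 CPM in the GMP trio. GMP 5 matched LSK 44, and the other GMP-derived libraries were higher than all LSK-derived ones (45.3 ± 4.18 against 59.1 ± 8.43 CPM, log2 fold change -0.39 ± 0.13, adjusted p = 0.0622). Myd88 was called without GMP 5 (log2 fold change -0.51, adjusted p = 0.0170) and by DESeq2 (-0.39, 0.0323), in a range up to 0.164. Reads in the part that overlaps Acaa1a may belong to either gene.

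**Figure D2:**
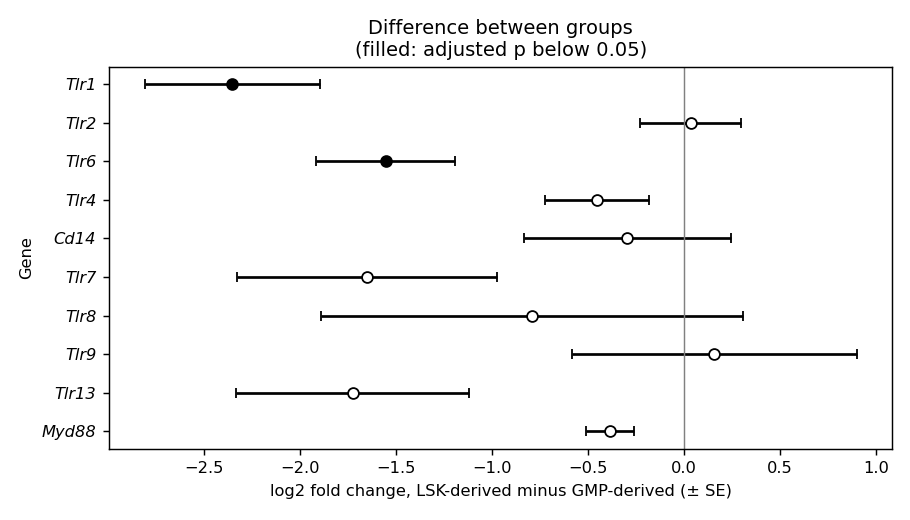
Log2 fold change (LSK-derived minus GMP-derived) of each gene with its approximate SE, filled where the adjusted p was below 0.05. Tlr1 at -2.36 and Tlr6 at -1.55 are filled. Tlr2, Tlr8, Tlr9 and Cd14 lie within 1 SE of 0, and Tlr7 and Tlr13 have large differences with wide errors.

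In all, 2 of 10 members (20.0%) were called lower and 0 higher in the LSK-derived libraries by edgeR. Over all 13406 tested genes 25.7% were called, 13.9% lower and 11.8% higher, so the share of members called was near the background. At an unadjusted p under 0.05, 5 of 10 members were lower and 0 higher, against 39.3% of all tested genes in either direction (2771 lower and 2500 higher). Neither DESeq2 nor limma voom called a member higher. DESeq2 called 4 members lower (Tlr1, Tlr6, Tlr7 and Myd88) and limma voom 2. The groups did not overlap, with the GMP-derived higher, in 3 of 10 members and in 22.8% of tested genes. The median log2 fold change was -0.63 over the members and 0.01 over all tested genes. Leaving out LSK 44 left 0 members called, and leaving out LSK 45 or GMP 5 gave 4.

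The order of the genes by level differed between the groups. Per kb of merged exon, Myd88 came first in both, at 17.6 ± 1.62 CPM per kb in the LSK trio and 22.9 ± 3.27 in the GMP trio, and its range lay clear of the next gene. In the LSK-derived libraries Tlr4 (6.47 ± 2.15 CPM per kb) and Tlr2 (5.19 ± 0.970) followed, with overlapping ranges, then Cd14 (2.84 ± 0.804), Tlr13 (2.73 ± 2.13), Tlr1 (1.17 ± 0.775), Tlr9 (0.892 ± 0.385), Tlr6 (0.768 ± 0.350), Tlr7 (0.414 ± 0.235) and Tlr8 (0.110 ± 0.126). From Cd14 down, each of these genes overlapped its neighbour in that order. In the GMP-derived libraries Tlr13 (9.07 ± 4.41 CPM per kb) and Tlr4 (8.89 ± 2.24) came next and overlapped, and Tlr4 lay clear of Tlr1 (6.03 ± 0.397). Tlr2 (5.07 ± 1.60), Cd14 (3.48 ± 2.45), Tlr6 (2.27 ± 0.602), Tlr7 (1.31 ± 0.930), Tlr9 (0.793 ± 0.574) and Tlr8 (0.194 ± 0.197) followed, each overlapping the one before. Tlr1 thus ranked below Tlr2 in all 3 LSK-derived libraries and above it in all 3 GMP-derived ones. In GMP 11 and GMP 19 the 2 genes were nearly level, with Tlr1 at 1.08 and 1.01 of Tlr2 per kb, against 1.72 in GMP 5. Their order there depends on the exon lengths taken.

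The libraries of a group differed from each other in these genes more than in most. The highest library exceeded the lowest 2.50-fold (median over the members) among LSK-derived and 2.23-fold among GMP-derived libraries, against 1.19-fold and 1.24-fold over all tested genes. These tested genes were not matched to the members for level. Counting error alone widens such ratios in genes with few counts, such as Tlr8. The order of libraries was nearly the same from gene to gene. LSK 45 was the highest of its group in 9 of 10 members (38.1% of all tested genes), LSK 46 the lowest in 9 (30.2%), GMP 5 the lowest in 10 (37.3%) and GMP 19 the highest in 9 (35.8%). Myd88 was the exception among LSK-derived and Tlr9 among GMP-derived libraries. The spread of Tlr1 was 3.88-fold among LSK-derived and 1.14-fold among GMP-derived libraries, while that of Tlr9 was 2.59-fold and 8.82-fold and that of Cd14 1.74-fold and 4.71-fold.

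The sum of monocyte and macrophage markers had the same order of libraries within each group. It was at 1330, 2479 and 952.5 CPM in the LSK trio and at 691, 2038 and 2110 CPM in the GMP trio. The sum was carried mostly by Ly6c2, Ccr2, F13a1 and Lyz2, and not all markers had its order. Of these carriers, Ly6c2, Ccr2 and F13a1 were higher in GMP 11 (874, 411 and 417 CPM) than in GMP 19 (827, 382 and 295 CPM). Lyz2 had the order of the sum. Csf1r, the M-CSF receptor gene, also had that order, at 10.6, 21.9 and 4.96 CPM in the LSK trio and at 2.71, 14.2 and 28.3 CPM in the GMP trio. Emr1, the gene of the macrophage antigen F4/80, did not, with its highest level in GMP 5 (159 CPM, against 30.0 in GMP 11 and 79.1 in GMP 19). Fcgr1 was also highest in GMP 5 within its group, and Cd68 was highest in LSK 46 among the LSK trio. Between the groups, 2 of 11 tested markers passed (18.2%, against 25.7% of all tested genes). These were Cx3cr1 and Mrc1, both higher in the LSK-derived libraries, while C1qa, C1qc, Ms4a7 and Lyz1 had at most 10 counts in every library. The part of these markers in the results was not tested, and in bulk RNA fewer cells with a gene and less RNA per cell cannot be told apart. Summed neutrophil markers were at 126, 186 and 55.7 CPM in the LSK trio and at 25.8, 103 and 621 CPM in the GMP trio. Of 9 tested neutrophil markers, 3 were lower and 1 higher (44.4% called, against 25.7% of all tested genes). Of the lower genes, Ngp was at 3.57, 16.4 and 130 CPM in the GMP trio (edgeR adjusted p = 0.0490). S100a9 was at 5.37, 20.1 and 195 CPM there (0.0476), so both were by far highest in GMP 19. Summed dendritic cell markers were at 52.3, 73.4 and 50.8 CPM in the LSK trio and at 9.88, 25.1 and 25.5 CPM in the GMP trio. They came mostly from Flt3, with Batf3 at 0 counts. Both sums had the library order of the monocyte and macrophage sum, so that order was also found in sums of other markers. In the LSK trio the neutrophil sum came mostly from Mmp8 (101, 173 and 40.9 CPM). Ngp, S100a8 and S100a9 were lowest in LSK 45 within that trio. Flt3 was higher in LSK 46 (44.9 CPM) than in LSK 44 (41.6 CPM). Summed erythroid and megakaryocyte markers (36.65, 11.4 and 89.2 CPM) and B cell markers (19.5, 15.2 and 22.2 CPM) had the reverse order in the LSK trio. B cell markers, of interest because B cells carry Tlr9, summed to 15.2 to 22.2 and 4.51 to 13.9 CPM, with Cd79b the largest part except in GMP 19 (Cd79b 5.48 and Igll1 7.59 CPM), while Ms4a1 and Pax5 had 0 counts.

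**Figure D3:**
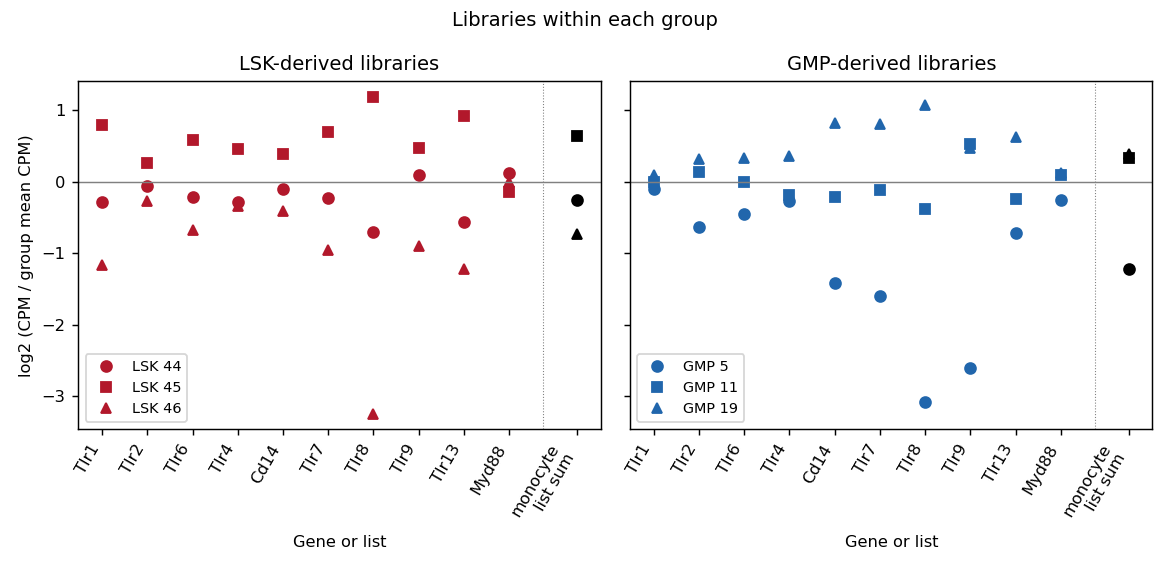
Level of each gene in each library relative to its group mean (log2 of CPM over group mean CPM), with black symbols for the summed monocyte and macrophage markers. LSK 45 is the top symbol in 9 of 10 genes and GMP 5 the bottom symbol in all 10, and the black symbols follow a like order. Summed neutrophil and dendritic cell markers, which are not drawn, had the order of the black symbols too. Summed B cell markers and summed erythroid and megakaryocyte markers, also not drawn, had the reverse order in the LSK trio.

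The remaining 4 Toll-like receptor genes did not pass the filter on low counts, and 1 of them was called higher by DESeq2 and by edgeR with no filter. Tlr3, Tlr5 and Tlr11 had at most 8 counts in a library. Tlr12, an endosomal receptor for profilin, had 3, 10 and 7 counts in the LSK trio and 1, 0 and 0 counts in the GMP trio, a ratio of 27.9 after scaling for total counts (exact 95% counting interval 4.46 to 1155, counting error only).

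Promoter sequences from RefSeq (GRCm38.p6) were found for 7 of the 10 members, in 9 windows of 250 bases before to 50 after a start. Tlr4, Tlr7 and Cd14 had no entry. The motifs searched, on both strands, were GAGGAA, a core of sites for the myeloid factor PU.1, a core of interferon response elements (GAAA, any 2 bases, GAAA) and TATAAA, the TATA box. Shown are the windows of the 3 genes whose groups did not overlap and of Tlr2, the partner whose groups overlapped, each 5′ to 3′ on the gene's strand with motif matches in capitals.
Tlr1 (first start, chr5:64933509-64933808, minus strand): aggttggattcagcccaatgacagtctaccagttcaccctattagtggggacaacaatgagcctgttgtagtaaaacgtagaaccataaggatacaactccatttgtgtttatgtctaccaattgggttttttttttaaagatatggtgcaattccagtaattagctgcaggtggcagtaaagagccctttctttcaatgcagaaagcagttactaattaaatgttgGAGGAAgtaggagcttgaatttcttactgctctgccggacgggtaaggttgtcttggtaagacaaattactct
Tlr1 (second start, chr5:64932650-64932949, minus strand): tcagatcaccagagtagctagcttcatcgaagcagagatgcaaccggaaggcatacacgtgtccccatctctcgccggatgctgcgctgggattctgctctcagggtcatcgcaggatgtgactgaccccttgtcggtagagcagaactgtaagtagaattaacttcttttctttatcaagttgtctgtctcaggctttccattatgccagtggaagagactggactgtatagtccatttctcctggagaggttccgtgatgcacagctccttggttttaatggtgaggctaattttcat
Tlr6 (first start, chr5:64959117-64959416, minus strand): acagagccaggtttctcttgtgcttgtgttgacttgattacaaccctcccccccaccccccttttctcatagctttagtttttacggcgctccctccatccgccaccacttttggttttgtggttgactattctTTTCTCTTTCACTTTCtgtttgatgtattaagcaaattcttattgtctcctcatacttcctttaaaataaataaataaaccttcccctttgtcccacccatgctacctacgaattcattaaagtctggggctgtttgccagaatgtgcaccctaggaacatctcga
Tlr6 (second start, chr5:64959999-64960298, minus strand): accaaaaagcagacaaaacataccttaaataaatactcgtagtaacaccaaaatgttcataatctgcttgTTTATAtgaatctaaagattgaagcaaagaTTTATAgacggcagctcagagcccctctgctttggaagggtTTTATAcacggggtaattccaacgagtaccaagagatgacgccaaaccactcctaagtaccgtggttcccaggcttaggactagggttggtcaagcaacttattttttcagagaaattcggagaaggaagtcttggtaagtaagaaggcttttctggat
Tlr13 (chrX:106143025-106143324, plus strand): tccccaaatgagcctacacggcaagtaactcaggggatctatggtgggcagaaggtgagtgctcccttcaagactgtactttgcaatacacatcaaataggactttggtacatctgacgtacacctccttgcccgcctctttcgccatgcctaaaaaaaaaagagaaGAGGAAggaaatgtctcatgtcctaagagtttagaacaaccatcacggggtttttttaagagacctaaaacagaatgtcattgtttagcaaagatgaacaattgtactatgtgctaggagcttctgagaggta
Tlr2 (chr3:83841559-83841858, minus strand): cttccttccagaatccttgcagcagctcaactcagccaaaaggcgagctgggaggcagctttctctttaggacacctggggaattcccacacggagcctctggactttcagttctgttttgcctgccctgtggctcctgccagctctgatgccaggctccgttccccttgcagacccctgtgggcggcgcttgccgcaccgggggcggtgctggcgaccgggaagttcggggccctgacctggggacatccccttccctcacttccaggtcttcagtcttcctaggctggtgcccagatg
GAGGAA or its complement stood in 4 of the 9 windows, those of Tlr1 (first start), Tlr8, Tlr9 and Tlr13, and in 28.3% of all 32851 windows of the table. The interferon response core stood in 2 windows, those of Tlr6 (first start, where 2 matches overlap) and Myd88, and in 3.44% of all. TATAAA stood in 3 windows, those of Tlr6 (second start), Tlr8 and Myd88, and in 13.6% of all. Tlr1 and Tlr6, which were both lower in LSK-derived libraries, shared none of the 3 motifs in these windows. The counts are per gene and do not say which start was used, and a match is only a match of letters.

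Genes of the pathway outside the set were read from 6 lists by role. Of 82 tested genes, 5 were higher and 17 lower in the LSK-derived libraries, 26.8% in all, against 25.7% of all tested genes. The median log2 fold change was -0.11. Without LSK 46 the counts were 3 higher and 10 lower, and without GMP 5 they were 6 and 24.

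Among co-receptors and accessory proteins, 0 of 10 tested genes were higher and 1 was lower. Ly86, the gene of MD-1, which partners the receptor CD180, was at 36.4 ± 13.5 against 11.7 ± 7.46 CPM (log2 fold change 1.63 ± 0.51, adjusted p = 0.0593; called by DESeq2 at 0.0334 and without GMP 19 at 0.0291, in a range up to 0.172). Trem1, which amplifies Toll-like receptor signals in myeloid cells, was lower (1.95 ± 0.410 against 6.06 ± 2.77 CPM, adjusted p = 0.0267), and lost its call with limma voom and in every fit without a library except that without GMP 5 (up to 0.0969, in a range from 0.00134). Hmgb1 and Lrrc33, which had the highest means of the list over all 6 libraries, did not pass (adjusted p = 0.1296 and 0.318), though Lrrc33 did without GMP 5 (0.0488, in a range up to 0.686). Of chaperones and trafficking genes, 1 of 12 was higher and 0 lower. That gene, Ap3b1, of an adaptor complex that sorts endosomal receptors, was at 168 ± 4.28 against 136 ± 10.4 CPM (adjusted p = 0.0270; lost without LSK 44, LSK 45, LSK 46 or GMP 11, up to 0.0878, in a range from 0.00445). The chaperone gene Hsp90b1 was at 1045 ± 85.0 and 1035 ± 67.4 CPM, and the protease gene Ctsb at 239 ± 45.1 and 310 ± 51.3 CPM (adjusted p = 0.145, and 0.0490 without LSK 45, in a range up to 0.357). Unc93b1, whose product carries the endosomal receptors to their compartment, was at 64.8, 99.9 and 57.3 CPM in the LSK trio and at 64.3, 178 and 209.9 CPM in the GMP trio. Unc93b1 was not called (adjusted p = 0.142, and 0.0153 without GMP 5, in a range up to 0.373). Within each group it had the library order of Tlr7, which was also that of the surface receptor genes Tlr2 and Tlr4. LSK 45 and GMP 19 were both the highest of their group in 8 of 10 members and in 18.5% of all tested genes.

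Of 27 tested adaptor and signalling genes, 7 were lower and 1 higher (29.6% called). The lower genes included both adaptors of the TRIF branch, through which TLR3 and TLR4 induce interferon. Ticam2, the bridging adaptor TRAM that TLR4 uses, was at 1.94, 1.77 and 1.62 CPM in the LSK trio and at 12.2, 9.17 and 10.2 CPM in the GMP trio. The values were tight within each group and far apart between them (log2 fold change -2.56 ± 0.18, adjusted p = 0.000541), and the call held in all 12 alternatives. Exons of Ticam2 overlap those of its neighbour Tmed7, so reads in the overlap are uncertain. Ticam1, which encodes TRIF itself, was at 22.6 ± 1.29 against 36.6 ± 4.32 CPM (log2 fold change -0.69 ± 0.11, adjusted p = 0.00555), and Tbk1, the kinase gene downstream of it, at 76.0 ± 4.87 against 96.2 ± 2.49 CPM (adjusted p = 0.0149; lost without LSK 44 or LSK 46, up to 0.0652, in a range from 0.000665).

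On the MYD88 branch, Irak4, the first kinase of the complex, was at 35.7 ± 3.42 against 55.0 ± 4.61 CPM (log2 fold change -0.62 ± 0.10, adjusted p = 0.00679), and Irak2 at 8.66 ± 0.510 against 22.7 ± 7.23 CPM (-1.39 ± 0.25, 0.00935). Irak1 was at 199 ± 6.999 and 201 ± 11.8 CPM (adjusted p = 0.939), the adaptor gene Tirap at 18.4 ± 0.982 and 20.3 ± 1.06 CPM (0.309) and the ubiquitin ligase gene Traf6 at 74.8 ± 4.79 and 81.1 ± 3.06 CPM (0.283). The ligase gene Peli1 was lower (36.3 ± 2.10 against 52.9 ± 9.66 CPM, adjusted p = 0.0271; lost without LSK 44 or LSK 46, up to 0.0984, in a range from 0.00293). Irf5, a transcription factor gene activated through MYD88, was at 9.38, 9.22 and 9.33 CPM in the LSK trio and at 18.6, 22.3 and 33.2 CPM in the GMP trio (log2 fold change -1.41 ± 0.21, adjusted p = 0.00517). The higher gene was Ikbkb, a subunit of the NF-kB kinase (126 ± 6.79 against 93.0 ± 6.07 CPM, log2 fold change 0.43 ± 0.08). Exons of Irak4 and Irf5 overlap those of the tested genes Twf1 and Tnpo3.

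Negative regulators split, with 2 of 17 tested genes higher and 3 lower (29.4% called). Irak3, a kinase-dead family member that brakes the MYD88 complex, was at 36.4, 32.8 and 40.2 CPM in the LSK trio and at 17.2, 18.1 and 19.6 CPM in the GMP trio. It was thus higher in each LSK-derived library than in any GMP-derived one (log2 fold change 0.99 ± 0.10, adjusted p = 0.00157), opposite in direction to Irak2 and Irak4, and its exons overlap those of Tmbim4. Sigirr, a decoy-like receptor gene, was also higher (21.2 ± 3.32 against 11.9 ± 2.20 CPM, adjusted p = 0.0177; 0.0671 without LSK 46, in a range from 0.000498). The lower genes were Nlrx1, of a mitochondrial regulator (12.2 ± 3.70 against 49.1 ± 10.9 CPM, log2 fold change -2.01 ± 0.27), the inhibitory receptor gene Cd300a (18.1 ± 6.15 against 49.8 ± 14.2 CPM, -1.46 ± 0.29) and Tollip (102 ± 4.62 against 133 ± 7.97 CPM, -0.38 ± 0.07). Cd300a lost its call without LSK 44 (adjusted p = 0.0644) or LSK 46 (0.0548), in a range from 1.93e-06, and Tollip without LSK 46 (0.0505), in a range from 0.000155. Without LSK 46 the counts of this list were 1 higher and 1 lower, and without GMP 5 they were 3 and 5.

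Of 27 genes known as targets of Toll-like receptor signals, 16 were tested, and 10 had at most 10 counts in every library, among them Il1b, Il6, Il12b and Ifnb1. Of the tested genes, 6 were lower and 1 higher (43.8% called, against 25.7% of all tested genes), with a median log2 fold change of -0.86. Ccl4, a chemokine gene, was at 0.544, 2.04 and 1.33 CPM in the LSK trio and at 8.81, 14.8 and 23.2 CPM in the GMP trio (log2 fold change -3.54 ± 0.54, adjusted p = 0.00643). Its neighbour Ccl3 was at 16.3 ± 9.30 against 103 ± 37.1 CPM (-2.64 ± 0.51, adjusted p = 0.0142; lost with no filter, without LSK 46 and without GMP 19, up to 0.0628, in a range from 0.000149). The adhesion gene Icam1 was at 14.2 ± 3.37 against 36.3 ± 4.84 CPM (log2 fold change -1.35 ± 0.19), the costimulator gene Cd80 at 0.630 ± 0.175 against 3.70 ± 0.912 CPM (-2.52 ± 0.32), and Cxcl10 at 0.254 ± 0.120 against 1.86 ± 0.970 CPM (-2.90 ± 0.55). Cxcl10, which is among the called genes counted here, passed the filter on low counts only through the GMP trio, so its test was not independent of the filter. Il1rn, which encodes the IL-1 receptor antagonist, was at 0.949 ± 0.711 against 16.2 ± 13.96 CPM (log2 fold change -4.07, or -3.12 without GMP 19 and -4.91 without LSK 45), and lost its call with limma voom, with no filter and without LSK 44 or LSK 46 (adjusted p up to 0.0786, in a range from 0.000156). Marcksl1 was the higher gene (56.7 ± 3.44 against 35.4 ± 4.16 CPM). Among tested target genes that were not called, Il12a (log2 fold change 1.03), Nfkbiz (0.73), Ier3 (0.38) and Zfp36 (0.30) lay above 0. Sod2 lay near 0 (0.0056), and Ccl2 (-3.01) and Cd86 (-1.24) lay below it. Tnf, at 8.49 ± 1.39 and 8.63 ± 0.898 CPM, and the NF-kB inhibitor gene Nfkbia, at 22.3 ± 5.11 and 30.9 ± 9.01 CPM, did not pass (adjusted p = 0.928 and 0.223), though Nfkbia did without GMP 5 (0.0454, in a range up to 0.504). The part of the monocyte and neutrophil markers given above in these differences was not tested.

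**Figure D4:**
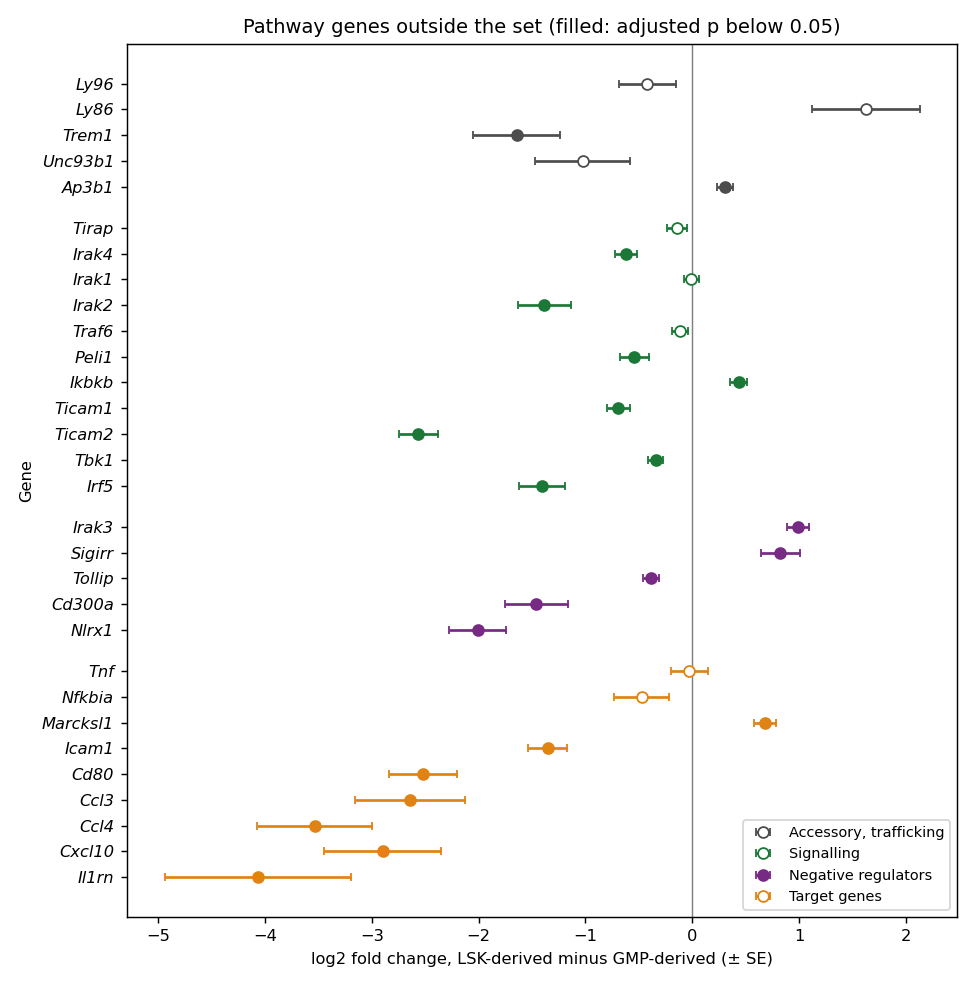
Log2 fold change (LSK-derived minus GMP-derived) with approximate SE of 30 genes of the pathway outside the set, coloured by role and filled where the adjusted p was below 0.05. Ticam2, Irf5 and most of the target genes drawn lie to the left, Irak3 and Sigirr to the right, and Irak1, Tirap, Traf6 and Tnf near 0. The target genes drawn are the called ones with Tnf and Nfkbia, so their lean follows in part from that choice.

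Over the 6 libraries, the genes with the most similar pattern to Tlr1 were 6030446N20Rik, Ets1 and Sort1 (Pearson r of log2 CPM of 0.9987, 0.9985 and 0.9984), out of 9849 genes compared. Those most like Cd14 were Gstp1, Ubtd1 and Klf13 (0.9899, 0.9895 and 0.9875). With 6 libraries in 2 groups many genes reach such values: 401 genes had r above 0.95 with Tlr1 and 30 with Cd14. Ets1, a transcription factor gene, was at 55.2, 79.2 and 43.1 CPM in the LSK trio and at 131, 145 and 139 CPM in the GMP trio, the same grouping as Tlr1 with LSK 45 the highest of its group. Gstp1 changed far less than Cd14, from 42.3 CPM in GMP 5 to 49.7 CPM in GMP 19.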

How the data were processed

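RNA-seq was read from 1 table in which the authors deposited raw read counts per gene symbol, 1 column for each of 6 libraries, with no normalization. Per the labels' protocols, TRIzol RNA went into TruSeq libraries. STAR 2.4, HTSeq 0.6.1, DESeq2 and mm9 are listed, without their roles, in the submitters' processing notes. Neither the annotation nor the strand setting is given in the sources used here, so overlapping genes are uncertain.

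The test was that of edgeR 4.0.16 (R 4.3.3), with filterByExpr, TMM scaling, glmQLFit with robust estimation and glmQLFTest on 3 LSK-derived against 3 GMP-derived libraries, without covariates. Benjamini-Hochberg adjustment ran over all 13406 tested genes, and a gene was called below 0.05. The SE is the absolute log2 fold change over the square root of the F statistic, an approximation. On simulated counts drawn for that same comparison (13216 genes), 55.1% of 98 genes changed 2-fold and 86.7% of 98 changed 4-fold were recovered. There, 9 unchanged genes were called. The share of genes changed in the simulation was far below the 25.7% called in the data, so these rates need not hold for the data.

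Exon lengths, 50-base windows and exon overlaps came from GENCODE M21 and promoters from RefSeq, both on GRCm38, not mm9. Likeness was the Pearson r of log2(CPM + 0.5) over genes of at least 5 mean CPM. The members and lists were chosen with earlier results of these data known. From each pathway list the rule named up to 4 called genes by smallest p, or up to 2 more by level where fewer than 2 were called. The remaining called genes were added to complete the lists, and Ly96, Ly86, Unc93b1, Tirap, Traf6, Irak1, Tnf and Nfkbia for their role after their values were seen, as were the single markers given. The other tested target genes that were not called were also named after their values were seen. Alternatives were RLE and upper-quartile scaling, no filter, DESeq2 1.42.0, limma voom (limma 3.58.1), leaving out each library, and the sum of Tlr1 and Tlr6.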

Additional observations from a re-analysis of the deposited data

How the results depend on the processing

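No paired analysis was possible because the titles of the groups share no replicate number. The number of members called lower in LSK-derived libraries was 2, and was 4 with DESeq2, 1 with Tlr1 and Tlr6 summed (of 9 features), and 0 to 4 when a library was left out; with RLE or upper-quartile scaling, no filter or limma voom it was 2. The number called higher was 0 in every alternative. For pathway genes the counts of 5 higher and 17 lower were 8 and 20 with DESeq2, and 3 to 7 and 10 to 24 without a library. Over all tested genes, 1577 were higher and 1867 lower, and 770 to 1523 and 973 to 1944 without a library. With 2 libraries in 1 group fewer degrees of freedom remain. No scaling turned the sign of a called member. Signs turned in genes that were not called. Over the fits without a library, the log2 fold change ran from -0.21 (without GMP 5) to 0.23 for Tlr2, which was also negative without LSK 45 (-0.12), and from -2.44 to 0.33 (without GMP 19) for Tlr8. It ran from -0.34 (without GMP 5) to 0.51 for Tlr9, which was also negative without LSK 45 (-0.17), and from -0.69 to 0.40 (without GMP 19) for Cd14. For Hsp90b1 it was -0.00088 with no filter and ran from -0.0387 to 0.0777 without a library. For Irak1 it was 0.0166 with upper-quartile scaling and ran from -0.0579 to 0.0231 without a library. For Tnf it was 0.00125 with upper-quartile scaling and ran from -0.13 to 0.10 without a library. The cause of these changes was not tested. Depth limits Tlr8 most, with 28 counts over the LSK-derived and 70 over the GMP-derived libraries.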
